A study of Mus musculus with 6 samples.

Results

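Expression of 9 genes of steroid synthesis was examined in RNA sequencing of the mouse mesonephros: Scarb1, Star, Cyp11a1, Fdxr, Fdx1, Hsd3b1, Hsd3b6, Cyp17a1 and Insl3. They were taken by symbol from a table of 20033 genes, of which 8 were matched. Insl3, the peptide hormone of Leydig cells, was not analysed here. Of the 8 genes, 7 had a mean of at least 1 TPM (a read share scaled for gene length and library size) in at least 1 group, and Cyp11a1 lay under 1 TPM in both groups.

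The study concerned how Wnt9b bears on the developing Wolffian duct and its response to androgens. It compared 3 mesonephroi of Wnt9b-/- male embryos, which carry a global knockout and are called knockouts here, with 3 control mesonephroi. All were male, at stage E12.5, 1 library per mouse, and no treatment is named. The sample labels give the controls as heterozygous and the design text gives them as Wnt9b+/+, so they are called controls here. Because the knockout is global, the ligand is lost from every cell type and not from the duct alone. The labels give no litter or batch and do not say how much of the gonad or adrenal was dissected away.

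Steroid hormones are made from cholesterol. Cholesterol enters the cell, is moved into the mitochondrion by Star and is cut by Cyp11a1 to pregnenolone, with electrons handed on by Fdxr and Fdx1. The 3-beta-hydroxysteroid dehydrogenases and Cyp17a1 then lead towards progesterone and androgens. In the embryo these steps are known from the Leydig cells of the testis and the cortex of the adrenal, which form beside the mesonephros, and testicular androgens maintain the Wolffian duct. The mesonephros itself is a transient kidney with a duct, tubules and mesenchyme, and is not known as a steroid-producing organ.

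Wnt9b, measured over the whole gene, was at 23.4, 19.2 and 19.0 TPM in the knockouts, against 24.9, 26.4 and 34.0 TPM in the controls. The log2 difference of -0.44 (SE 0.14) did not pass (limma adjusted p = 0.266). Wnt9b was lower in knockouts in the authors' deposited table too, where it did pass (log2 fold change -0.455, authors' adjusted p 0.0263). Reads from exons that a deletion leaves behind count in a whole-gene level, so that level is a weak check of the genotype labels. The markers of the labelled tissue were present in all 6 libraries: the summed level of 10 duct, tubule and mesenchyme genes ran from 682 to 805 TPM in knockouts and from 681 to 759 TPM in controls. Library depth, recovered from the deposited values as a lower bound, was 28408222 to 31740057 reads in knockouts and 28669974 to 32974958 reads in controls. Knockout 3 stood apart by its liver genes, at a summed 87.5 TPM, against 3.51 and 3.31 TPM in knockouts 1 and 2 and at most 9.18 TPM in controls.

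Promoters are shown for 2 pairs of genes that work in the same step but gave different values: Hsd3b1 and Hsd3b6, which encode paralogous enzymes, and Fdxr and Fdx1, the reductase and the ferredoxin of 1 electron chain. Each line holds the 200 bases before the start of the gene, 5′ to 3′, from RefSeq on build GRCm38.p6, which is not the build of the deposited table. All 4 genes lie on the minus strand. The windows are chr3:98859795-98859994 for Hsd3b1, chr3:98814444-98814643 for Hsd3b6, chr11:115276970-115277169 for Fdxr and chr9:51963603-51963802 for Fdx1. Capitals mark a match to AGATAA or TGATAA, letters that GATA factors bind, on either strand.
Hsd3b1: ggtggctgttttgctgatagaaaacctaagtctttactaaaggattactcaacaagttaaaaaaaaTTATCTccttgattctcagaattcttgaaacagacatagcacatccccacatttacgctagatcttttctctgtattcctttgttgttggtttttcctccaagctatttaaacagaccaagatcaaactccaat
Hsd3b6: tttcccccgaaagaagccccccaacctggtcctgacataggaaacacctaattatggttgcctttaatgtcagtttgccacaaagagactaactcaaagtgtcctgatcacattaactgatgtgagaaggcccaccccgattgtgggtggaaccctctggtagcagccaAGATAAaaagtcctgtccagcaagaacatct
Fdxr: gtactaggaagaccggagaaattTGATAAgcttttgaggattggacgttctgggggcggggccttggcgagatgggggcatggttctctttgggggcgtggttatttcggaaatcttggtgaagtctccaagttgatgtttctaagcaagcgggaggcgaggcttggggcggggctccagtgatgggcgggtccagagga
Fdx1: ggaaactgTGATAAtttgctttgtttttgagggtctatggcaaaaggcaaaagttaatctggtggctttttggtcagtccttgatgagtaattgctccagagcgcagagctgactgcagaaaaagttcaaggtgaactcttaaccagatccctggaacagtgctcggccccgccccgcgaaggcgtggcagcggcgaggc

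Windows of 300 bases around the start were at hand for 6 of the 9 genes (Hsd3b1, Hsd3b6, Fdxr, Fdx1, Cyp11a1 and Insl3), with 2 starts for Cyp11a1. A match to AGATAA or TGATAA was found in 4 of them, those shown above, and 18.6% of all 32851 windows in the RefSeq table hold one. The match began 134 bases before the start in Hsd3b1, on the opposite strand, and 31 bases before it in Hsd3b6, 177 in Fdxr and 192 in Fdx1. The letters AAGGTCA, bound by Nr5a1, were in none of the 7 windows and in 4.72% of all windows, which says only that these letters are absent from these windows.

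Levels fell into 2 sets. Hsd3b6, Fdx1, Fdxr, Scarb1 and Star were above 5 TPM in every library, whereas Hsd3b1, Cyp17a1 and Cyp11a1 were near or under 1 TPM in the controls. In knockouts the mean levels ran in the order Hsd3b6 (22.0 TPM), Fdx1 (20.5), Fdxr (20.1), Scarb1 (14.1), Star (7.89), Hsd3b1 (4.51), Cyp17a1 (1.52) and Cyp11a1 (0.996). In controls the order was Hsd3b6 (22.9 TPM), Fdx1 (21.0), Fdxr (13.1), Scarb1 (11.8), Star (6.29), Hsd3b1 (0.650), Cyp11a1 (0.328) and Cyp17a1 (0.0393). Hsd3b6, Fdx1 and Fdxr overlapped in knockouts, as did Hsd3b6 with Fdx1 and Fdxr with Scarb1 in controls, so their order is not resolved by 3 libraries. Hsd3b1 overlapped Star and Cyp17a1 in knockouts, and Cyp17a1 overlapped Cyp11a1 there. In controls Hsd3b1 overlapped both Cyp11a1 and Cyp17a1. The deposited TPM follow the length of all exons of a gene together, which for Scarb1 is 8500 bases against 3093 for its longest transcript. Per base of the longest transcript, the level of Scarb1 would be 2.75 times higher, that of Fdxr 1.44 times and that of Cyp11a1 1.40 times, so the order of levels across genes depends on the length used.

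Knockout and control values did not overlap for 6 of the 8 genes (Scarb1, Star, Cyp11a1, Fdxr, Hsd3b1 and Cyp17a1), each higher in knockouts, and none was lower without overlap. Of all 20033 genes, 7.88% were higher without overlap and 8.45% lower. Limma was run on the 17577 genes that reached 1 TPM in at least 3 libraries, 6 of the 8 among them. Of these 6, 4 were higher without overlap and 0 lower, against 8.14% and 8.49% of all tested genes. None of the 6 had a limma adjusted p under 0.05, which 0.444% of all tested genes had (0.131% higher and 0.313% lower). At an unadjusted p under 0.05, 2 of the 6 stood out, Fdxr and Hsd3b1, both higher, against 11.3% of all tested genes in either direction and 5.35% higher. A second tool, limma-voom on the recovered reads, called 0 of the 6 and 1.68% of all genes. The median log2 difference was 0.26 over the 6 genes and -0.0075 over all tested genes. In the authors' deposited table, Cyp17a1 and Fdxr have an adjusted p under 0.05, which is 2 of the 8, both higher, where 3.55% of all genes with an adjusted p do (1.38% higher and 2.17% lower).

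**Figure D1:**
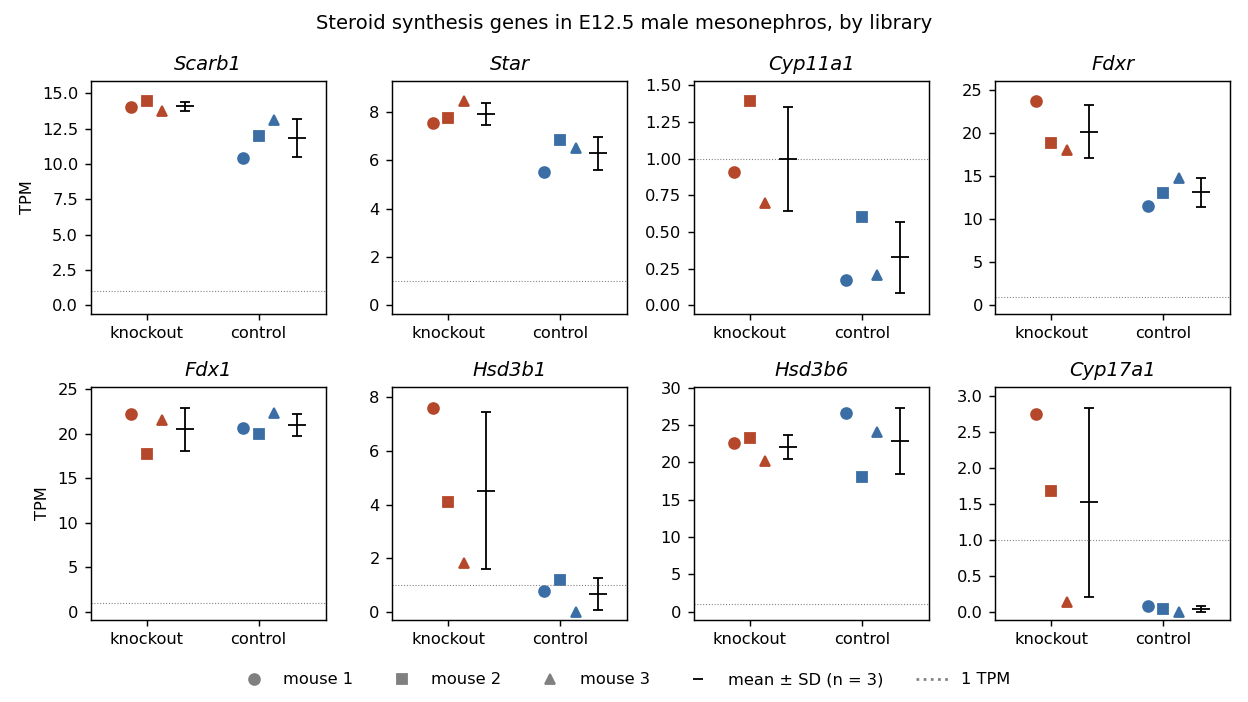
Level of each of the 8 genes in TPM (vertical axis, 1 scale per panel) in the 3 knockout and 3 control libraries. Points are libraries, bars are the mean ± SD (n = 3 each) and the dotted line is 1 TPM; Fdx1 and Hsd3b6 overlap between the groups, and the knockout points of Hsd3b1 and Cyp17a1 are spread widely.

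Scarb1 (ENSMUSG00000037936) encodes the receptor that takes up cholesterol esters from high-density lipoprotein. It was at 14.0, 14.4 and 13.8 TPM in knockouts and at 10.4, 12.0 and 13.1 TPM in controls. The knockout values lay close together and just above the highest control. The log2 difference was 0.24 (SE 0.12, 95% interval -0.04 to 0.51; limma adjusted p = 0.523).

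Star (ENSMUSG00000031574) encodes the protein that carries cholesterol to the inner mitochondrial membrane, the regulated entry step of steroid synthesis. Its level was 7.53, 7.73 and 8.42 TPM in knockouts, against 5.52, 6.83 and 6.51 TPM in controls. The groups did not overlap, with a gap close to the SD of the controls (0.682 TPM), and the log2 difference of 0.29 (SE 0.14, 95% interval -0.03 to 0.61) did not pass (limma adjusted p = 0.497).

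Cyp11a1 (ENSMUSG00000032323), the cytochrome P450 that cleaves the cholesterol side chain, was barely present. It was at 0.905, 1.39 and 0.696 TPM in knockouts and at 0.171, 0.605 and 0.208 TPM in controls. At least 10, 14 and 7 reads stood behind the knockout values and at least 2, 6 and 2 reads behind the control values. These are lower bounds that may miss a factor common to the libraries. Exon length gives 4.03 times as many, near 40.3, 56.4 and 28.2 reads in knockouts and 8.06, 24.2 and 8.06 reads in controls. The lowest knockout lay just above the highest control. The gene was under the filter, and with no filter its log2 difference was 0.59 (SE 0.20; limma adjusted p = 0.337).

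Fdxr (ENSMUSG00000018861) encodes the reductase that passes electrons from NADPH to ferredoxin, and it serves all mitochondrial P450 enzymes. It was at 23.6, 18.8 and 18.0 TPM in knockouts and at 11.5, 13.1 and 14.7 TPM in controls, a ratio of means of 1.54. Every knockout library lay above every control library, and knockout 1 was the highest. The log2 difference was 0.58 (SE 0.14, 95% interval 0.26 to 0.90), and the limma adjusted p was 0.160 (0.0683 to 0.458 under 14 alternatives). The authors' deposited table lists it at a log2 fold change of 0.63, adjusted p 0.00637.

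Its partner Fdx1 (ENSMUSG00000032051), the ferredoxin that delivers these electrons to Cyp11a1, gave 22.2, 17.8 and 21.6 TPM in knockouts and 20.7, 19.9 and 22.4 TPM in controls. The groups overlapped, and the log2 difference of -0.04 had a 95% interval of -0.29 to 0.22 (limma adjusted p = 0.937). The sign changed when control 3 or knockout 2 was left out.

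Hsd3b1 (ENSMUSG00000027871) encodes the enzyme that turns pregnenolone into progesterone in Leydig cells and the adrenal cortex of the mouse. It was at 7.62, 4.11 and 1.80 TPM in knockouts, from at least 65, 32 and 14 reads. In controls it was at 0.776 and 1.17 TPM, from at least 7 and 9 reads, and at 0 in control 3, where 3 such reads would be 0.403 TPM. Exon length gives 1.96 times as many reads for this gene, and 3 reads would then be 0.206 TPM. The lowest knockout exceeded the highest control, but the knockouts differed among themselves by 4.23 times. The log2 difference was 1.67 (SE 0.44, 95% interval 0.65 to 2.68; limma adjusted p = 0.191, and 0.0646 to 0.461 under 13 alternatives). It was 1.27 without knockout 1 and 2.08 without knockout 3, 3.04 with a pseudocount of 0.1 and 3.24 with limma-voom. The ratio of mean TPM was 6.94, which the log2(TPM + 1) scale understates. Hsd3b1 passed the filter through its 3 knockout libraries and 1 control, so its place among the tested genes depends on the group in which it is high.

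Hsd3b6 (ENSMUSG00000027869), the paralog known in the mouse from adult Leydig cells and the outer adrenal cortex, had the highest mean of the 8 genes in deposited TPM, not resolved from Fdx1 or, in knockouts, Fdxr. It was at 22.6, 23.3 and 20.2 TPM in knockouts and at 26.6, 18.0 and 24.1 TPM in controls. The knockouts lay inside the range of the controls, and the log2 difference of -0.04 had a 95% interval of -0.37 to 0.29 (limma adjusted p = 0.948). The longest transcripts of Hsd3b1 and Hsd3b6 were 84.0% identical over 1553 aligned positions, the longest stretch they shared was 72 bases, and none of the 1706 windows of 150 bases (the read length) of Hsd3b1 was found in Hsd3b6. Hsd3b1 was at 0 in a library in which Hsd3b6 had 24.1 TPM. How reads that match several places were counted is not given in the sources used here, and the related genes Hsd3b2 and Hsd3b3 were not analysed here.

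Cyp17a1 (ENSMUSG00000003555) encodes the 17-alpha-hydroxylase and 17,20-lyase that commits steroids to the androgen branch. It was at 2.75, 1.68 and 0.129 TPM in knockouts, from at least 70, 39 and 3 reads, and at 0.0742, 0.0437 and 0 TPM in controls, from at least 2, 1 and 0 reads. Knockouts 1 and 2 stood far above the other 4 libraries, while knockout 3 was close to the controls and below the 0.135 TPM that 3 reads would give in control 3. Summed over libraries and per depth, reads in knockouts were 37.8 times those in controls (95% exact binomial interval 12.6 to 186, which covers counting error only). Within the knockouts, the level in knockout 1 was 21.2 times that in knockout 3. With no filter the log2 difference was 1.11 (SE 0.39; limma adjusted p = 0.346), on a log2(TPM + 1) scale that understates changes of low genes. Its log2 fold change in the authors' deposited table is 5.23 (adjusted p 0.000734).

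**Figure D2:**
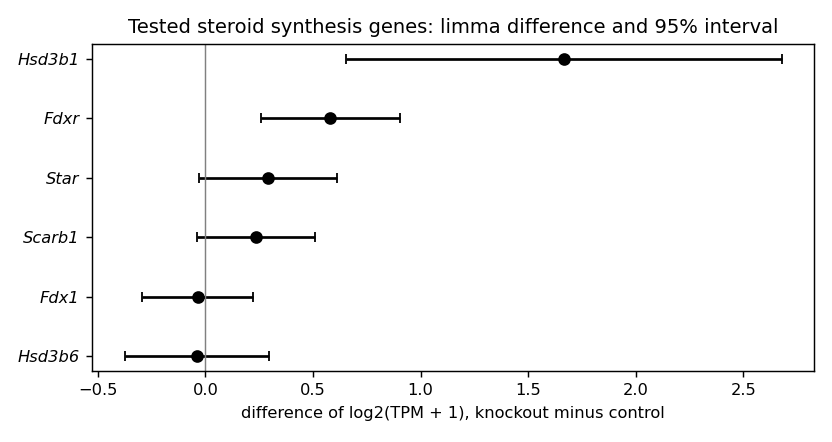
Difference of log2(TPM + 1), knockout minus control, for the 6 tested genes with the 95% interval of limma (horizontal axis). The intervals of Hsd3b1 and Fdxr lie above 0 before adjustment over all genes, and those of Star, Scarb1, Fdx1 and Hsd3b6 include 0.

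The 3 knockout libraries were not alike. Cyp17a1, Hsd3b1 and Fdxr were each highest in knockout 1 and lowest in knockout 3, as were 16.9% of all genes, whereas Star was highest in knockout 3 and Cyp11a1 in knockout 2. Hsd17b3, which makes testosterone from androstenedione and in the fetal mouse testis is known from Sertoli cells, was at 3.20, 1.28 and 0.343 TPM in knockouts and at 1.11, 0 and 0 TPM in controls. It showed the same knockout order as Cyp17a1, and its log2 difference of 0.87 (SE 0.46) did not pass (limma adjusted p = 0.556). For Hsd17b3 the difference was 2.46 with a pseudocount of 0.1 and 3.21 with limma-voom, neither past the threshold.

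Markers of neighbouring tissues also differed among these libraries. The summed level of 14 genes of Sertoli and other gonadal somatic cells was 370.0, 320.3 and 233 TPM in knockouts, against 214, 169 and 169 TPM in controls, and 9 of the 14 were highest in knockout 1 and lowest in knockout 3. Amh, the hormone of Sertoli cells, was at 67.8, 44.7 and 9.58 TPM in knockouts and at 10.5, 5.87 and 4.33 TPM in controls (log2 difference 2.10, SE 0.62; limma adjusted p = 0.244, 0.0175 without knockout 3, and up to 0.559 under the 13 other alternatives, none of which passed). Sox9, the Sertoli cell transcription factor that the mesonephros also expresses, averaged 31.4 ± 7.04 TPM in knockouts and 32.2 ± 0.517 TPM in controls (SD, n = 3 each). For 7 genes of sympathetic and chromaffin cells, which lie beside and inside the adrenal, the sum was 41.5, 18.6 and 2.75 TPM in knockouts and 6.17, 4.22 and 6.88 TPM in controls, and all 7 had the order of knockout 1 highest and knockout 3 lowest. The same order held for 7 of the 10 mesonephros markers and 5 of the 7 germ cell genes, against 16.9% of all genes. Of the sympathetic and chromaffin genes, Phox2a was at 0 in knockout 3, and Hand1 was at 0 in knockout 3 and control 2. The 7 germ cell genes summed to 74.9, 52.5 and 22.9 TPM in knockouts and to 59.2, 17.7 and 23.5 TPM in controls. By limma, 0 of 6 tested germ cell genes, 0 of 5 chromaffin, 0 of 3 liver and 0 of 12 red blood cell genes passed. At an unadjusted limma p under 0.05 there were 0, 1, 0 and 2, against 11.3% of all tested genes, and limma-voom called 0 in each list. The chromaffin gene was Th, at 3.86, 2.47 and 1.21 TPM in knockouts and 0.609, 0.307 and 0.211 TPM in controls. Its limma adjusted p was 0.160, and the authors' deposited table lists it at adjusted p 0.00097. Th reached 1 TPM in the 3 knockout libraries alone, so its test depends on the group in which it is high. Of the 10 mesonephros genes, Tcf21 was higher and Pdgfrb, a receptor gene of mesenchyme, was lower, at 150.9 ± 5.14 TPM in knockouts and 229 ± 15.7 TPM in controls (SD, n = 3 each; limma adjusted p = 0.0137, and past the threshold in 2 of 6 omissions of 1 library, those of knockout 3 and control 1). In a bulk sample, more cells of a type and more RNA per cell cannot be told apart, and the part of gonadal or adrenal tissue in the values of Cyp17a1 and Hsd3b1 was not tested.

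**Figure D3:**
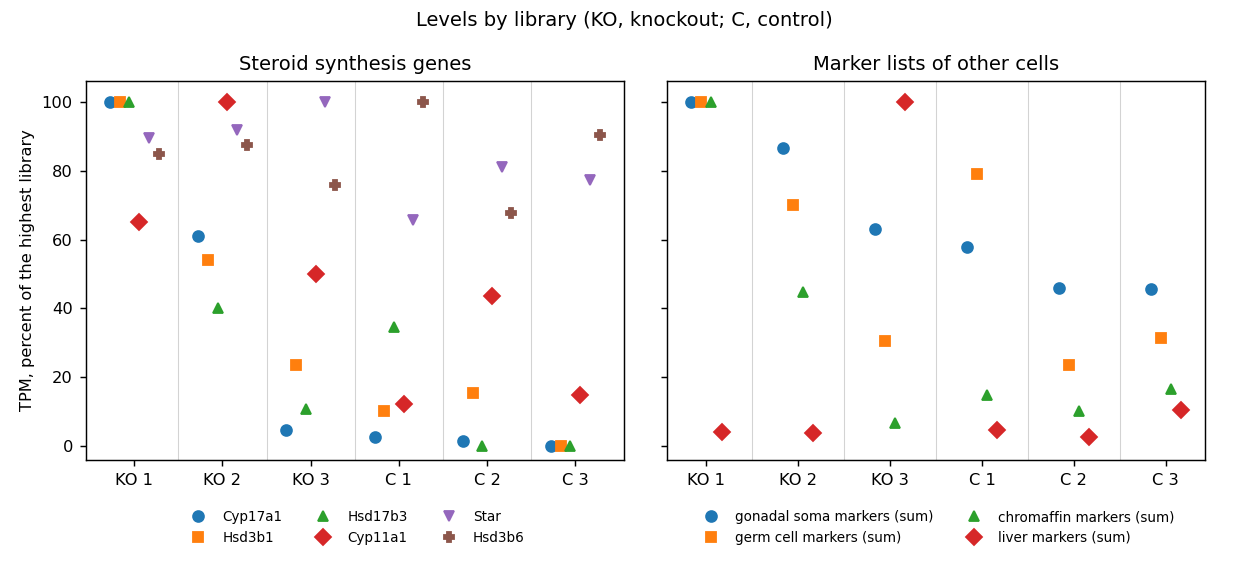
Level in each library as a percent of the highest library (vertical axis) for 6 steroid synthesis genes (left) and for the summed marker lists of other cells (right). Cyp17a1, Hsd3b1, Hsd17b3 and the sums of gonadal soma, germ cell and chromaffin markers peak in knockout 1, whereas Star and Hsd3b6 stay above 65% in all 6 libraries and liver markers peak in knockout 3.

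Markers of the steroid-producing cells themselves were mixed. The 15 listed genes of fetal Leydig cells include 5 of the 9 genes described here (Star, Cyp11a1, Hsd3b1, Cyp17a1 and Insl3). Of the 15, 10 were matched and 7 tested, and limma and limma-voom each called 0. At an unadjusted limma p under 0.05 there were 2 of the 7, Hsd3b1 higher and Vsnl1 lower, against 11.3% of all tested genes. The 4 that were higher without overlap were Star, Cyp11a1, Hsd3b1 and Cyp17a1, all described above, and Vsnl1 was lower without overlap. Of all genes, 7.88% were higher and 8.45% lower without overlap. The Leydig list summed to 56.4, 58.4 and 77.6 TPM in knockouts and 53.4, 43.2 and 42.7 TPM in controls. Its most abundant member by mean TPM was Ren1, the renin gene, at 13.8, 21.3 and 46.5 TPM in knockouts and 24.1, 12.0 and 9.18 TPM in controls, and it was highest in knockout 3, where Cyp17a1 was lowest of the knockouts. Lhcgr, the receptor for luteinising hormone, and Cyp21a1 were not analysed here. Of 10 listed adrenal cortex genes, 6 were matched and 5 tested, and 1 was higher, Nr0b1, while 4 did not pass. Over all tested genes, limma called 0.131% higher. At an unadjusted limma p under 0.05 there were 2 of the 5, Nr0b1 and Mc2r, both higher, against 11.3% of all tested genes. Limma-voom called 1. Mc2r, the receptor for adrenocorticotropic hormone, was at 16.1, 15.5 and 19.2 TPM in knockouts and at 12.4, 13.7 and 12.3 TPM in controls, so it was present in every library and the groups did not overlap. Its log2 difference of 0.37 (SE 0.12) did not pass (limma adjusted p = 0.276). The adrenal cortex list includes Hsd3b6, which is described above. It summed to 113.6, 117 and 96.1 TPM in knockouts and to 97.3, 90.8 and 90.6 TPM in controls. Its most abundant members were Rspo3 and Hsd3b6, with Rspo3 at 56.8 ± 10.7 TPM in knockouts and 50.8 ± 0.921 TPM in controls (SD, n = 3 each).

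Several transcription factors listed for steroid-producing cells were higher in knockouts, Nr0b1, which restrains Nr5a1, among them. Among 18 tested regulators (transcription factors and receptors of steroid-producing cells), 5 were called higher, 0 lower and 13 were not called by limma. Over all tested genes, 0.131% were called higher and 0.313% lower. The median log2 difference of the regulator list was 0.11. At an unadjusted limma p under 0.05 there were 7 of 18, against 11.3% of all tested genes, and limma-voom called 5. Of the 19 matched genes, 8 were higher without overlap and 0 lower, against 7.88% and 8.45% of all genes. Nr5a1, the nuclear receptor needed for the gonad and adrenal, was at 25.1, 20.2 and 19.4 TPM in knockouts and at 9.48, 5.20 and 4.97 TPM in controls (log2 difference 1.62, SE 0.22; limma adjusted p = 0.0281). Gata4, a zinc finger factor of gonadal somatic cells, was at 39.6, 41.2 and 33.2 TPM in knockouts, against 17.0, 8.25 and 7.02 TPM in controls (log2 difference 1.82, SE 0.27; limma adjusted p = 0.0354). Nr0b1, a nuclear receptor that restrains Nr5a1, was at 9.62, 14.0 and 11.0 TPM in knockouts and at 4.78, 4.42 and 3.10 TPM in controls (log2 difference 1.30, SE 0.19; limma adjusted p = 0.0354). The other two were Gata6, at 70.2 ± 3.94 TPM in knockouts and 47.9 ± 0.764 TPM in controls, and Tcf21, at 295 ± 24.0 TPM in knockouts and 191 ± 12.6 TPM in controls (SD, n = 3 each; limma adjusted p = 0.0199 and 0.0197).

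Unlike Cyp17a1, Nr5a1, Gata4 and Nr0b1 in knockout 3 lay well above every control. Passing the threshold depended on the libraries kept. Of the 6 omissions of 1 library, Nr5a1 and Gata4 passed in 2 (without control 1 and without knockout 3). Nr0b1, Gata6 and Tcf21 passed in 1 (without knockout 3). Over all genes the omissions gave 13 to 242 calls, against 78 with all libraries. The log2 differences kept their sign, at 1.48 to 1.88 for Nr5a1, 1.59 to 2.17 for Gata4 and 1.15 to 1.41 for Nr0b1. They ran from 0.50 to 0.57 for Gata6 and from 0.58 to 0.69 for Tcf21. In the authors' deposited table all 5 have an adjusted p under 0.05, the highest being 0.00169 for Gata4. With median-ratio scaling Gata4 and Nr0b1 did not pass, without the mean-variance trend none of the 5 did, and with the replicate block only Nr5a1 did (adjusted p = 0.0336, against 0.0589 for Gata4 and for Tcf21, 0.0987 for Gata6 and 0.0981 for Nr0b1). Among the gonadal soma genes, 3 of 13 tested were called higher (Kctd14, Nr5a1 and Gata4), 0 lower and 10 not called. Over all tested genes, 0.131% were called higher and 0.313% lower. Nr5a1 and Gata4 are in the regulator list too, and both lists were chosen with earlier results of these data known. At an unadjusted limma p under 0.05 there were 8 of 13, with Cldn11 among them as lower, against 11.3% of all tested genes. The median log2 difference was 0.76. Of the 14 matched genes, 7 were higher without overlap and 0 lower, against 7.88% and 8.45% of all genes. Kctd14 averaged 30.8 ± 5.05 TPM in knockouts and 5.69 ± 2.32 TPM in controls (SD, n = 3 each; limma adjusted p = 0.00858).

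**Figure D4:**
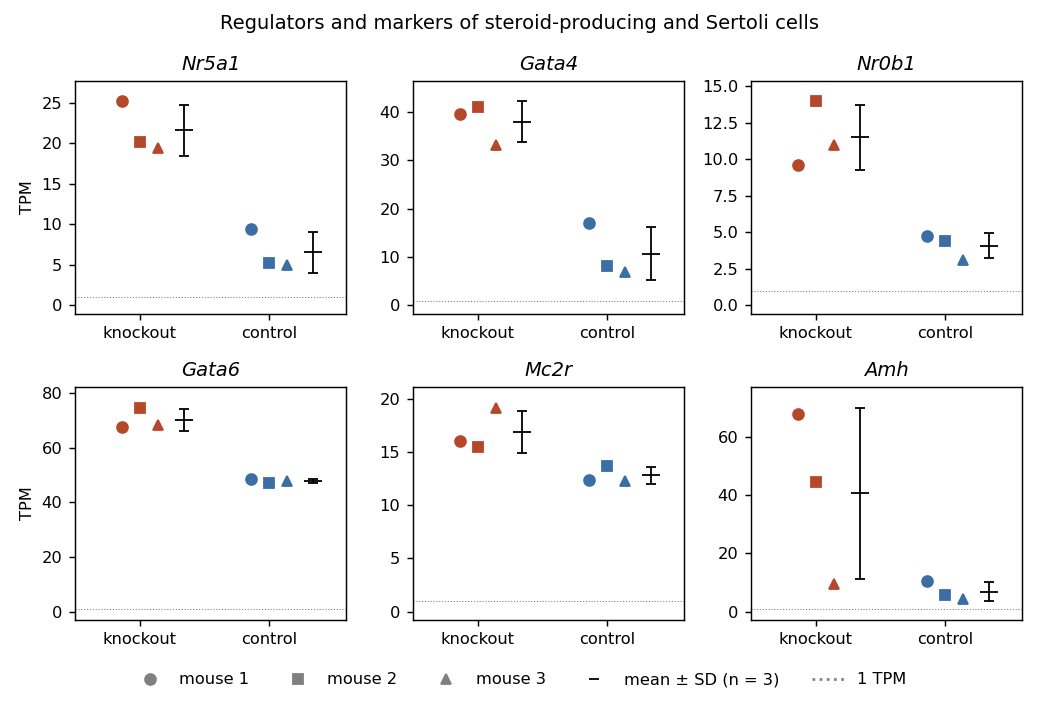
Level in TPM (vertical axis, 1 scale per panel) of 5 regulators and receptors and of Amh in the 3 knockout and 3 control libraries; bars are the mean ± SD (n = 3 each). Nr5a1, Gata4, Nr0b1, Gata6 and Mc2r lie above every control in all 3 knockouts, and Amh is spread from 9.58 to 67.8 TPM among the knockouts.

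Few genes around the members passed the test. Of 28 tested genes of cholesterol uptake, storage and movement, limma called 0 higher and 1 lower, against 0.131% and 0.313% of all tested genes. The median log2 difference of the 28 was -0.0065. The lower one was Vldlr, a lipoprotein receptor gene, at 25.0 ± 1.72 TPM in knockouts and 39.1 ± 2.10 TPM in controls (SD, n = 3 each; limma adjusted p = 0.0305, and past the threshold in 1 of 6 omissions of 1 library, that of knockout 3). In the same list 4 of 28 had an unadjusted limma p under 0.05, against 11.3% of all tested genes, and limma-voom called 1. Without overlap, 6 of the 28 were higher and 3 lower, against 8.14% and 8.49% of all tested genes. Lrp1, another lipoprotein receptor gene, was at 102 ± 5.41 TPM in knockouts and 133 ± 20.8 TPM in controls (SD, n = 3 each; limma adjusted p = 0.233). The authors' deposited table lists Lrp1 at adjusted p 0.00275. Of 16 tested enzymes that act after or beside the members, none passed (1 at an unadjusted p under 0.05; 0 by limma-voom). The most abundant were Hsd17b10 (log2 difference 0.07) and Hsd11b2 (0.09), and Cyp19a1, the aromatase gene, was not analysed here. None of 6 tested electron donors and mitochondrial P450 enzymes passed (0 at an unadjusted p under 0.05; 0 by limma-voom). Cyb5a, which supports the lyase step of Cyp17a1, had a log2 difference of 0.09 and Cyb5r3 one of 0.06. Srd5a2, a 5-alpha-reductase gene, and Fdx2, a ferredoxin gene, were too low to be tested and did not overlap between the groups. Srd5a2 was at 0.406, 0.371 and 0.298 TPM in knockouts and at 0.640, 1.58 and 1.16 TPM in controls. Fdx2 was at 0, 0.753 and 0.168 TPM in knockouts and at 0.939, 1.53 and 1.05 TPM in controls. Hsd17b14 and Hsd17b11 were lower without overlap too, of which Hsd17b11 was tested and did not pass. Of 19 matched enzymes after or beside the members, 3 were lower without overlap and 0 higher. Of 7 matched electron donors and mitochondrial P450 enzymes, 1 was lower and 0 higher. Of all genes, 8.45% were lower and 7.88% higher without overlap. None of 14 tested genes of iron-sulfur cluster assembly, which supplies ferredoxins, passed either (0 at an unadjusted p under 0.05; 0 by limma-voom), and Hspa9 and Iscu had log2 differences of -0.05 and 0.13.

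The genes most like each tested member over the 6 libraries were sought by Pearson correlation of log2(TPM + 1) among 12769 genes of at least 5 TPM on average. Fdxr was most like Cdc20, Ttc39c and Insig1 (r = 0.996, 0.994 and 0.993), Star was most like Mis12, Gm20604 and Bmp6 (0.995, 0.992 and 0.992), and Scarb1 was most like Gclm, Tmem151a and Tulp3 (0.996, 0.987 and 0.987). For Hsd3b1 the nearest were Nuf2, Bbln and Anapc13 (0.994, 0.989 and 0.989), for Fdx1 Ttpal, Ears2 and Mkrn1 (0.989, 0.988 and 0.980), and for Hsd3b6 Rpl10a-ps1, Dnajb2 and Gm44521 (0.983, 0.979 and 0.976). The number of genes with r over 0.95 was 67 for Fdxr, 49 for Star, 49 for Scarb1, 35 for Hsd3b1, 25 for Fdx1 and 5 for Hsd3b6. With 6 libraries that share depth and group, these values are a description.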

How the data were processed

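RNA from mesonephroi of 6 male embryos was enriched for poly(A) transcripts and read from both ends over 150 bases, per the labels' protocols. Build GRCm39 and DESeq2 are named in the submitters' processing notes. Aligner, counting tool, strand setting and annotation were not given in the sources used here. Deposited by the authors were TPM per library, the mean TPM of each group, and a log2 fold change, p-value and adjusted p-value of knockout over control, per the file headers. For 1175 genes that adjusted p is blank. Over 12771 genes of at least 5 TPM, the deposited log2 values had r = 0.9998 with the log2 ratio of mean TPM, which gives their direction.

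Samples were grouped by title. Differences were tested with limma 3.58.1 (R 4.3.3). Genotype was the only term, the scale was log2(TPM + 1), a mean-variance trend was used, and genes had to reach 1 TPM in 3 or more libraries, with Benjamini-Hochberg adjustment over 17577 genes and a threshold of 0.05. Whole reads were recovered from ratios of TPM between libraries (20032 of 20033 genes within 0.02 reads; in a check with up to 4000 reads, 90.1% of 1000 genes gave whole reads, against 0.0% once values were randomly altered). A factor common to the 6 libraries is lost, so reads are lower bounds, most of all for Cyp11a1 and Hsd3b1. Reads per TPM followed the exon length of the gene in GENCODE M21 within 5% for 95.8% of genes of over 1000 reads. Intervals and floors cover counting error only. Libraries of a group differed by a chi-square per degree of freedom of at least 7.38. Nothing says whether litters were shared, so p-values measure the spread between these embryos.

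The members and lists were chosen with earlier results of these data known. Named were Wnt9b, all members, up to 6 called genes per list or else the 2 of highest level, and a fixed set of regulators and markers. Phox2a, Hand1, Th, Lrp1, Srd5a2, Fdx2, Hsd17b14 and Hsd17b11 were named after their values were seen. A comparison of proteins was replaced by one of transcripts. Steps were tested on simulated data. Alternatives were another pseudocount, 2 filters, median-ratio scaling, a replicate block, no trend, limma-voom on recovered reads, removal of erythroid genes and leaving out each library.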

Additional observations from a re-analysis of the deposited data

How the results depend on the processing

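None of the steroid synthesis genes tested passed the threshold under any of the 14 alternatives to the settings used. The number of genes past the threshold over all genes was 78 and moved to 296 with limma-voom on recovered reads and to 28 without the mean-variance trend. Leaving out 1 library gave 13 to 242 genes. The omissions of knockout 1, knockout 2 and knockout 3 gave 30, 22 and 242, and those of control 1, control 2 and control 3 gave 28, 13 and 14. Over all tested genes, deviations of same-numbered libraries had correlations of -0.064, 0.050 and -0.051. Such correlations cannot say whether single genes pair by mouse number. With the replicate block the SE of Hsd3b1 fell from 0.44 to 0.27, and that of Fdxr rose from 0.14 to 0.16. With the replicate block, 17 genes and none of the steroid synthesis genes passed, and not every library correlated best with its own number. The log2 difference of Fdx1 ran from -0.0943 to 0.0598 over these omissions and was above 0 without knockout 2 (0.0598) and without control 3 (0.0083). That of Hsd3b6 ran from -0.1963 to 0.0738 and was above 0 without knockout 3 (0.0181), control 1 (0.0738) and control 3 (0.0034). That of Sox9 ran from -0.2082 to 0.1124, above 0 only without knockout 3. Why these values moved was not tested. Of the steroid synthesis genes, 6 had groups that do not overlap, and there were 6 after median-ratio scaling and after removal of erythroid genes, checks chosen after seeing the data. Depth limits Cyp17a1, Cyp11a1 and Hsd3b1, whose control values rest on few reads, although exon length gives 4.03 times the recovered reads for Cyp11a1 and 1.96 times for Hsd3b1.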
